A study of Mus musculus with 24 samples.

Results

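*Ahsg*, *Fetub*, *Hrg*, *Kng2*, and *Kng1* form a cluster of cystatin-type plasma protein genes on mouse chromosome 16 and are among the abundant transcripts of the liver. They were taken as the genes of this family that lie together on that chromosome, which gave 5 of the 23972 genes in the count table, and no threshold on their values was applied. The cluster as a whole was nevertheless selected on earlier results of the same libraries, the differences of these genes between genotypes in normalized counts. Levels, fold changes, and adjusted p values below are therefore a description, taken from 1 fit over all genes, and give no independent evidence of a direction. By the GENCODE M21 annotation on GRCm38, the cluster spans 191 kb. *Ahsg* (ENSMUSG00000022868) lies at chr16:22891277-22899449, *Fetub* (ENSMUSG00000022871) at chr16:22918334-22939778, *Hrg* (ENSMUSG00000022877) at chr16:22951072-22961656, *Kng2* (ENSMUSG00000060459) at chr16:22985854-23029482, and *Kng1* (ENSMUSG00000022875) at chr16:23057865-23082078. *Kng2* is read from the minus strand and the other 4 genes from the plus strand.

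The 24 libraries each held the liver RNA of 1 female mouse, kept at 22°C and fed a diet with 60% of energy from fat. Controls were *Lmna fl/fl* without Adipoq-Cre, and LmnaADKO mice were *Lmna fl/fl* with Adipoq-Cre, which removes lamin A/C from adipocytes and leaves the animals with little adipose tissue. The Cre is driven by the adiponectin promoter and is not meant to act in hepatocytes, so the liver measurements describe an organ that still carries intact *Lmna* in its own cells. Mice were 12 to 14 weeks old at the start, ate the diet for 4 weeks before retro-orbital injection, and were euthanized 8 weeks after it. The injection was either vehicle, a buffered saline with Pluronic, or the treatment that the labels name a rescue. The rescue was read from the study's methods as an AAV8 vector carrying FGF21, a hormone that liver releases into the circulation. The groups held 7 vehicle-treated controls, 3 rescue-treated controls, 6 vehicle-treated LmnaADKO mice, and 8 rescue-treated LmnaADKO mice.

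Fetuins, histidine-rich glycoprotein, and kininogens share cystatin-like domains, the fold that inhibits cysteine proteases in the cystatin family, and hepatocytes secrete them into plasma. *Ahsg* encodes fetuin-A, a carrier of calcium phosphate that restrains ectopic mineralization and is known as an inhibitor of insulin receptor signaling. *Fetub* encodes fetuin-B, which inhibits the egg protease ovastacin and thereby keeps the egg coat penetrable before fertilization. *Hrg* encodes histidine-rich glycoprotein, a plasma adaptor that binds heparin, plasminogen, thrombospondin, and divalent metal ions. *Kng1* and *Kng2* encode kininogens, from which kallikreins cut the vasoactive peptide bradykinin, and high-molecular-weight kininogen is also a cofactor of contact activation.

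The letters just before the start sites are shown for the 3 genes that were called lower in LmnaADKO livers (*Ahsg*, *Fetub*, and *Hrg*) and for *Kng2*, which was not called, so that the windows can be set beside the results. RefSeq start sites were used, with 150 bases upstream of each on GRCm38.p6, written 5′ to 3′ on the strand of the gene. The RefSeq start of *Hrg* is that of the GENCODE gene, the starts used for the other 3 lie inside their GENCODE genes, and the windows of *Ahsg* and *Kng2* lie wholly inside them. The windows are chr16:22891865-22892014 for *Ahsg*, chr16:22918232-22918381 for the first of 2 *Fetub* starts, and chr16:22950922-22951071 for *Hrg*, all on the plus strand, and chr16:23029102-23029251 on the minus strand for *Kng2*. Capitals mark matches, on either strand, to 4 short motifs that were chosen after these sequences had been seen. They are the C/EBP core TTGCNNAA, the FOXA core TGTTTNC, the TATA box TATAAA, and the HNF1 half-site GTTAAT.
Ahsg: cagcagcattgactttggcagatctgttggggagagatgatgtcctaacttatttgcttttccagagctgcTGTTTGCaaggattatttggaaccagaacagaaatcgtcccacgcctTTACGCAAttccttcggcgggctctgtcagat
Fetub: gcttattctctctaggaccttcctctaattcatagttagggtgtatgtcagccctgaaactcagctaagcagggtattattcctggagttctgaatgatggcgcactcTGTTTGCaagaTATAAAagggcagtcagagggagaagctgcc
Hrg: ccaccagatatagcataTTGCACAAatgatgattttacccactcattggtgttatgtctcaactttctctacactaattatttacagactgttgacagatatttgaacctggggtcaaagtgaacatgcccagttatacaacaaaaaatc
Kng2: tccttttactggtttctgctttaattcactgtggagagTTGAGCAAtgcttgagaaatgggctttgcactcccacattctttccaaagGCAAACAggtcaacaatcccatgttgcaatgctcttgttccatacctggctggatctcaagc
A FOXA match and a C/EBP match stood in the *Ahsg* window, at 79 to 73 and 32 to 25 bases upstream of the start. In the *Fetub* window, a FOXA match at 42 to 36 bases was followed by a TATA box at 31 to 26 bases. The *Hrg* window held 1 C/EBP match, at 133 to 126 bases, and the *Kng2* window held 1 C/EBP and 1 FOXA match. No HNF1 half-site was found in these windows, and the window of the second *Fetub* start (chr16:22920072-22920221) held none of the 4 motifs. Of 32851 mouse promoter windows of the same length, 5.46% held the C/EBP core, 10.3% the FOXA core, 7.57% the TATA box, and 3.71% the HNF1 half-site. C/EBP matches stood in the windows of *Ahsg*, *Hrg*, and *Kng2*, and the part of any motif in the levels was not tested. A match is a description of letters and not a site of binding, and the windows do not overlap between genes.

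The labels were checked on the genes they concern. *Lmna* was detected in every liver library. In CPM, the count scaled to a common library size, it stood at 18.6 ± 2.47 CPM (control) and 26.7 ± 2.57 CPM (LmnaADKO) with vehicle, and since its deletion is directed to adipocytes, liver counts do not check the genotype. *Fgf21* did not set the rescue groups apart, at 4.01 ± 3.18 and 4.78 ± 2.29 CPM in vehicle- and rescue-treated controls and 7.99 ± 2.48 and 5.36 ± 2.41 CPM in vehicle- and rescue-treated LmnaADKO livers. Within the liver counts, the rescue comparisons therefore rest on the labels alone. Outside the counts, the paper reports that plasma FGF21 rose after transduction in mice at this housing temperature. It describes that rise as disproportionately large in LmnaADKO mice. Those plasma values were not matched to single libraries here. Levels, taken relative to each gene's median over the libraries of the same genotype, fell with gene length in 3 libraries. These were control vehicle library 3, control rescue library 3, and LmnaADKO rescue library 7. Their slopes over 9779 protein-coding genes were -0.153, -0.293, and -0.333 per log2 of exonic length. The others ran from -0.108 to 0.127, so the first of the 3 lay close to them. Without these 3, the log2 fold changes of LmnaADKO relative to control described below were, with vehicle, -0.96 for *Ahsg*, -1.16 for *Fetub*, and -0.69 for *Hrg*, and those with rescue were -0.90 for *Ahsg* and -0.85 for *Fetub*, all of them called.

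The 5 transcripts covered a wide range of levels. Libraries held 19863304 to 21510054 counts on genes, and each of the 5 genes had at least 3889 counts in each library. *Ahsg* ranked 8 of all genes by mean CPM, *Kng1* ranked 57, *Hrg* 132, *Fetub* 326, and *Kng2* 331. Per kilobase of exon, the scale on which genes can be compared with each other, *Ahsg* stood at 4829 ± 758 CPM/kb (SD, n = 7) in vehicle-treated controls. On the same scale, *Kng1* stood at 623 ± 92.9, *Hrg* at 551 ± 55.4, *Fetub* at 260 ± 34.3, and *Kng2* at 131 ± 17.6 CPM/kb (SD, n = 7). The order of *Kng1* and *Hrg* was not separated by the spread between animals, since *Kng1* ranged from 525 to 785 and *Hrg* from 428 to 590 CPM/kb. The other neighbours in this order did not overlap. In vehicle-treated LmnaADKO livers, the order of *Kng2* and *Fetub* was no longer separated, with *Kng2* at 120 ± 18.9 and *Fetub* at 115 ± 27.3 CPM/kb (SD, n = 6). *Hrg*, at 337 ± 53.8 CPM/kb, then lay below *Kng1*, at 627 ± 90.9 CPM/kb, without overlap.

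**Figure D1:**
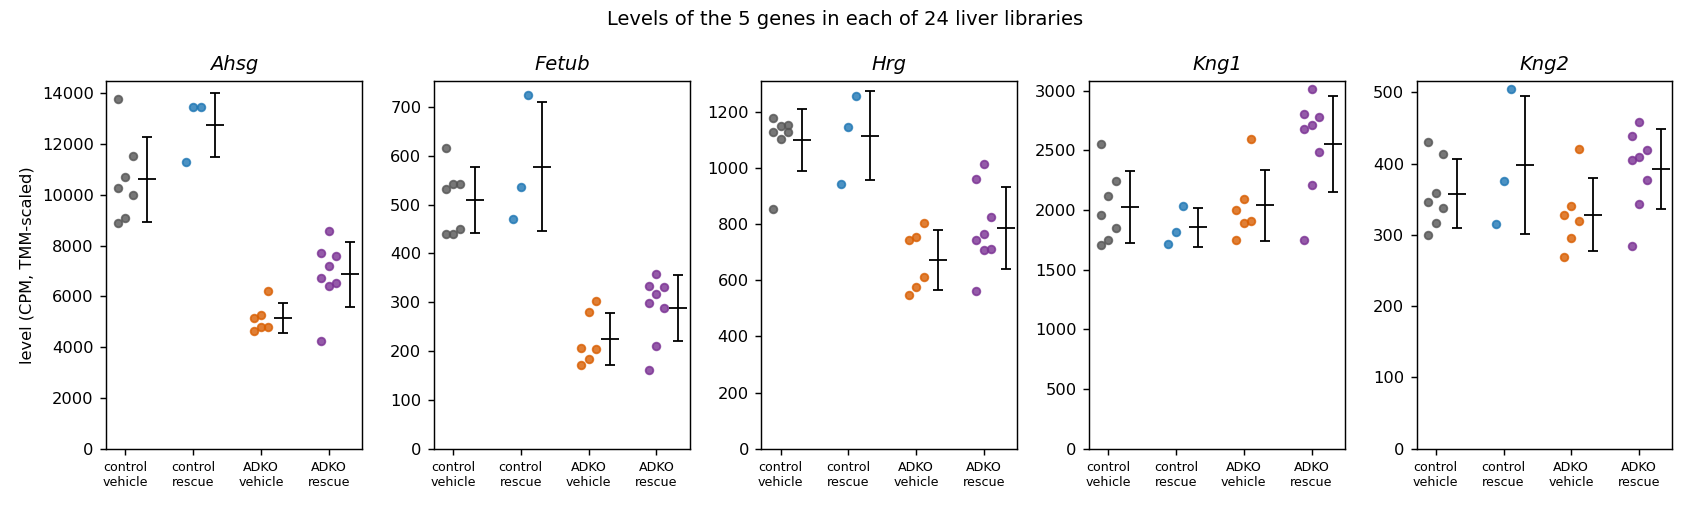
Level of each of the 5 genes in CPM (linear axes from 0) in the 24 liver libraries, 1 point per library, with the mean and SD of each group as a bar beside the points. Ahsg, Fetub, and Hrg were lower in vehicle-treated LmnaADKO than in vehicle-treated control libraries without overlap, whereas Kng1 and Kng2 overlapped.

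The genotype comparisons asked how liver transcripts differ when adipocytes lack lamin A/C, with and without the rescue. *Ahsg*, *Fetub*, and *Hrg* were lower in vehicle-treated LmnaADKO livers than in vehicle-treated controls, and *Ahsg* and *Fetub* were also lower in the rescue-treated LmnaADKO group, whereas *Kng1* and *Kng2* were called in neither comparison. In bulk liver RNA, fewer cells of a type and less RNA per cell cannot be told apart. Genes were counted as called where the p value, adjusted over all genes by the Benjamini-Hochberg method, was below 0.05 and the fold change exceeded 1.5. With vehicle, 3 of the 5 genes were called, all of them lower in LmnaADKO livers, where 8.48% of all genes were called in either direction, 5.12% higher and 3.36% lower. The same 3 genes were those without overlap between groups, which held for 7.95% of all genes (4.22% with LmnaADKO higher and 3.73% with LmnaADKO lower). With rescue, 2 of 5 were called, both lower, where 2.88% of all genes were called in either direction, 1.61% higher and 1.26% lower. *Ahsg* and *Fetub* did not overlap between those groups, as was true of 5.35% of all genes (2.98% with LmnaADKO higher and 2.37% with LmnaADKO lower). The number of all genes called with rescue, 690, depended on single libraries, and was 339 without control library 3, 416 without control library 2, and 1149 without LmnaADKO library 7.

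*Ahsg* was lower in LmnaADKO livers. Its level in vehicle-treated controls ran from 8893 to 13769 CPM with a median of 10270, and in vehicle-treated LmnaADKO livers from 4657 to 6219 CPM with a median of 4983. Every LmnaADKO library therefore lay below every control library. The log2 fold change, LmnaADKO relative to control, was -1.04 (standard error 0.142, 95% CI -1.33 to -0.75, edgeR, adjusted p = 8.99e-06). With rescue, the 3 controls measured 13478, 11288, and 13459 CPM, and the 8 LmnaADKO libraries ran from 4238 to 8578 CPM with a median of 6959. Again the groups did not overlap, and the log2 fold change was -0.89 (standard error 0.163, 95% CI -1.23 to -0.56, edgeR, adjusted p = 0.00198).

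*Fetub* had the lowest fold change of the 5 genes in both genotype comparisons, although its interval overlapped that of *Ahsg*. In vehicle-treated controls it ran from 439 to 616 CPM with a median of 533, and in vehicle-treated LmnaADKO livers from 171 to 302 CPM with a median of 205. The groups did not overlap, and the log2 fold change was -1.18 (standard error 0.167, 95% CI -1.52 to -0.84, edgeR, adjusted p = 1.49e-05). Rescue-treated controls measured 537, 470, and 725 CPM, and rescue-treated LmnaADKO libraries ran from 161 to 358 CPM with a median of 308. All 8 lay below the 3 controls, with a log2 fold change of -1.01 (standard error 0.19, 95% CI -1.39 to -0.62, edgeR, adjusted p = 0.00247).

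*Hrg* was lower by a smaller amount. Vehicle-treated controls ran from 854 to 1177 CPM with a median of 1129, and vehicle-treated LmnaADKO livers from 548 to 805 CPM with a median of 677. The gap between the groups was narrow, 854 against 805 CPM, because control library 4 lay well below the other 6 controls, whose lowest value was 1104 CPM. The log2 fold change was -0.71 (standard error 0.132, 95% CI -0.98 to -0.44, edgeR, adjusted p = 0.000381). Among rescue-treated animals, controls measured 1146, 942, and 1254 CPM and LmnaADKO libraries ran from 561 to 1013 CPM with a median of 753. Here 6 of 8 LmnaADKO libraries lay below all 3 controls, and the log2 fold change of -0.50 (standard error 0.155, 95% CI -0.82 to -0.19, edgeR, adjusted p = 0.0628) did not pass the threshold. Its fold change was below 1.5 in addition, and DESeq2, which gave an adjusted p of 0.0119, did not call it for that reason.

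*Kng1* was not called in either genotype comparison. With vehicle, it ran from 1707 to 2552 CPM with a median of 1961 in controls and from 1749 to 2595 CPM with a median of 1954 in LmnaADKO livers, so the ranges nearly coincided. The log2 fold change was 0.01 with a 95% CI of -0.26 to 0.28 (edgeR, adjusted p = 0.989), an interval that leaves out changes of the size measured for *Ahsg*, *Fetub*, and *Hrg*. With rescue, the controls measured 1711, 1816, and 2035 CPM, and the LmnaADKO libraries ran from 1751 to 3014 CPM with a median of 2698. Of the 8 LmnaADKO libraries, 7 lay above all 3 controls. The log2 fold change was 0.46 (standard error 0.162, 95% CI 0.13 to 0.79) and was not called, with an adjusted p of 0.111 from edgeR and 0.0304 from DESeq2 at a fold change under 1.5.

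*Kng2*, the less abundant kininogen, was not called in either genotype comparison. Vehicle-treated controls ran from 300 to 430 CPM and vehicle-treated LmnaADKO livers from 269 to 420 CPM, and the log2 fold change was -0.12 (95% CI -0.39 to 0.14, edgeR, adjusted p = 0.583). Rescue-treated controls measured 315, 376, and 504 CPM and rescue-treated LmnaADKO libraries 284 to 458 CPM, with a log2 fold change of -0.02 (95% CI -0.34 to 0.30, edgeR, adjusted p = 0.975). *Kng1* and *Kng2* are similar genes whose reads a counter could split between them. Of the 100-base stretches of their annotated transcripts, 4.93% of those in *Kng1* and 5.29% of those in *Kng2* also occurred in the other gene, against 0 for *Ahsg*, *Fetub*, and *Hrg*. When both kininogens were summed before the fit, the log2 fold change was -0.01 with vehicle and 0.39 with rescue, and neither was called (edgeR, adjusted p = 0.989 and 0.202).

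The intervals of each gene in the vehicle and rescue comparisons overlapped, and none of the 5 was called by edgeR or DESeq2 in the test of the interaction of genotype and treatment, where 0.00417% of all genes were called by edgeR. An unadjusted p under 0.05 was found for 1 of the 5 and for 4.86% of all genes. The largest interaction among the 5 was that of *Kng1*, a log2 difference of 0.45 (95% CI 0.03 to 0.88, unadjusted p = 0.0364, edgeR, adjusted p = 0.984).

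**Figure D2:**
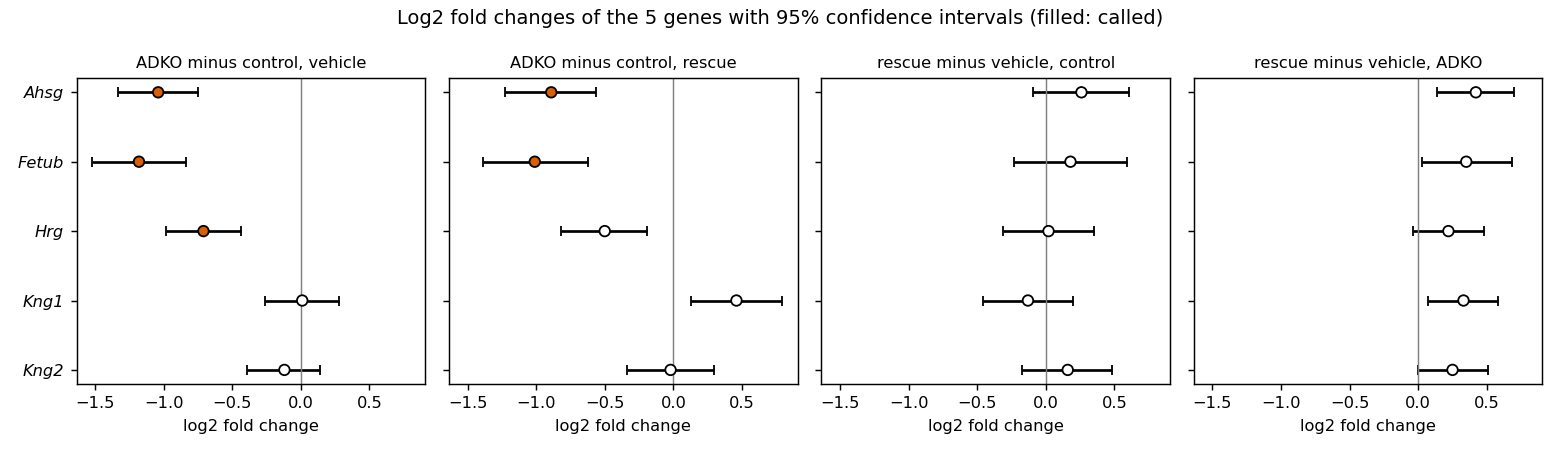
Log2 fold change (points) and 95% confidence interval (bars) of the 5 genes in 4 comparisons from the edgeR fit over all genes, with filled points for genes called at an adjusted p under 0.05 and a fold change above 1.5. Ahsg and Fetub were called in both genotype comparisons, Hrg only with vehicle, and no gene in either comparison of rescue with vehicle.

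Rescue was compared with vehicle within each genotype to see how the treatment changed the liver. None of the 5 genes was called in either genotype by edgeR or DESeq2, and 0 of them in controls and 3 in LmnaADKO livers had an unadjusted p under 0.05, as did 6.16% and 6.71% of all genes. In controls, the log2 fold changes were 0.26 for *Ahsg* (95% CI -0.09 to 0.61), 0.18 for *Fetub* (95% CI -0.23 to 0.59), 0.02 for *Hrg* (95% CI -0.31 to 0.35), -0.13 for *Kng1* (95% CI -0.46 to 0.20), and 0.16 for *Kng2* (95% CI -0.17 to 0.48). In LmnaADKO livers all 5 values were positive. They were 0.42 for *Ahsg* (95% CI 0.14 to 0.70, edgeR, adjusted p = 0.66), 0.35 for *Fetub* (95% CI 0.03 to 0.68), 0.22 for *Hrg* (95% CI -0.04 to 0.48), 0.33 for *Kng1* (95% CI 0.07 to 0.58), and 0.25 for *Kng2* (95% CI 0.00 to 0.51). For *Ahsg*, 7 of 8 rescue-treated LmnaADKO libraries lay above all 6 vehicle-treated ones. Among all genes, 0.0542% were called in controls and 0% in LmnaADKO livers, where DESeq2 called 15 genes. The 13 genes called in controls became 38 with DESeq2, 3 to 26 when single libraries were left out (rescue-treated library 2 and vehicle-treated library 6), and 0 with the number of digits of the animal number as a covariate. Each comparison of rescue with vehicle shares all its libraries with the genotype comparisons.

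In every one of the 5 genes, library 3 was the lowest of the rescue-treated LmnaADKO group, at 4238 CPM for *Ahsg*, 161 for *Fetub*, 561 for *Hrg*, 1751 for *Kng1*, and 284 for *Kng2*. The same library had the highest summed level of the cholangiocyte markers among all 24 libraries, at 242 CPM against 50.4 to 93.4 CPM in the other 7 of its group. It also had the lowest summed hepatocyte markers of the group, at 67335 CPM. Without it, 61 genes were called between rescue and vehicle in LmnaADKO livers, none of them in the cluster, and the log2 fold change of *Ahsg* was 0.49 with an adjusted p of 0.0691 from edgeR. The part of these markers in the levels of library 3 was not tested.

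The cluster's makeup differed between genotypes along with its total. Its 5 genes took 1.44% ± 0.134 (SD, n = 7) of all counts on genes in vehicle-treated controls and 0.894% ± 0.0656 (SD, n = 6) in vehicle-treated LmnaADKO livers. The corresponding shares with rescue were 1.55% ± 0.18 (SD, n = 3) and 1.07% ± 0.122 (SD, n = 8). Within the cluster, *Ahsg* made up 72.5% ± 3.09 of the counts in vehicle-treated controls and 61.2% ± 0.675 in vehicle-treated LmnaADKO livers, whereas *Kng1* made up 13.9% ± 1.76 and 24.2% ± 1.33. These shares are of counts, which grow with transcript length, so they compare libraries and not genes.

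Ratios taken within a library do not depend on its depth or scaling. The log2 ratio of *Ahsg* to *Kng1* ran from 1.97 to 2.62 in vehicle-treated controls and from 2.64 to 2.98 in rescue-treated controls. In LmnaADKO livers it ran from 1.26 to 1.46 with vehicle and from 1.23 to 1.61 with rescue, so all 14 LmnaADKO libraries lay below all 10 controls. The ratio of *Fetub* to *Kng1* likewise did not overlap between genotypes, at -2.23 to -1.49 over the controls and -3.44 to -2.75 over the LmnaADKO libraries. For *Hrg* to *Kng1* the margin was small, -1.20 in the lowest control and -1.23 in the highest LmnaADKO library. By contrast, *Ahsg* to *Fetub* overlapped, with means of 4.38 ± 0.26 (SD, n = 7) and 4.54 ± 0.23 (SD, n = 6) in vehicle-treated controls and LmnaADKO livers. These ratios were chosen after the levels were known and carry no test.

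**Figure D3:**
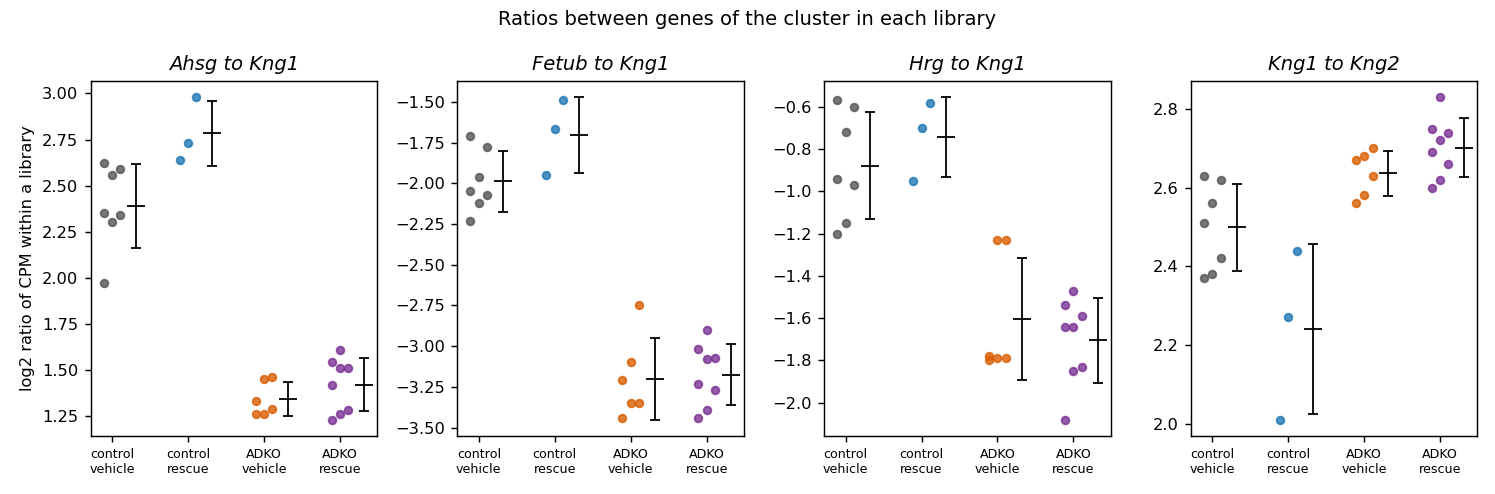
Log2 ratio of CPM between pairs of genes within each library, 1 point per library, with the mean and SD of each group as a bar beside the points (axes do not start at 0). The ratios of Ahsg, Fetub, and Hrg to Kng1 were lower in all LmnaADKO libraries than in all controls, and Kng1 to Kng2 ran from 2.01 to 2.63 in controls and from 2.56 to 2.83 in LmnaADKO libraries.

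Over the 24 libraries, log2 CPM of *Ahsg* and *Fetub* had a Pearson correlation of 0.94, *Fetub* and *Hrg* of 0.88, and *Ahsg* and *Hrg* of 0.82, whereas *Ahsg* and *Kng1* had a correlation of -0.03. After each group's mean was taken out, *Ahsg* and *Kng1* had a correlation of 0.72, *Fetub* and *Kng1* of 0.76, and *Kng1* and *Kng2* of 0.89. Pooled over the 4 groups, libraries with more *Ahsg* than their group's mean also tended to have more *Kng1*, although the 2 genes parted between genotypes. The pooled value does not show that this held in each group, and no correlation was taken for single groups. *Hrg* was the member least tied to the others on this scale, with correlations of 0.34 with *Ahsg*, 0.58 with *Fetub*, and 0.41 with either kininogen. Genes measured in the same library share its RNA and depth, so these values are descriptions.

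The genes whose level followed each member most closely once group means were removed were also looked up. Among 8285 genes whose log2 CPM averaged 3 or more, the highest correlations over the 24 libraries, with group means removed, were with *Serpina1a* (0.87), *Cyp2c68* (0.85), and *Apoa1* (0.83) for *Ahsg*. For *Fetub* they were with *Cyp2e1* (0.85), *Ang* (0.81), and *Rnase4* (0.81), and for *Hrg* with *Ildr2* (0.81), *Slc46a3* (0.79), and *Igfals* (0.78). For *Kng1* they were with *Ang* (0.85), *Rnase4* (0.85), and *Ambp* (0.84), and for *Kng2* with *Ctsh* (0.86), *Ang* (0.86), and *Btd* (0.85). *Ang* and *Rnase4*, which encode secreted ribonucleases, come from 1 locus with shared first exons, so their counts are not separate observations, and *Serpina1a* belongs to a family of near-identical copies. *Ang* was lower in vehicle-treated LmnaADKO livers, at 69.5 ± 24.9 against 422 ± 156 CPM (log2 fold change -2.60; edgeR, adjusted p = 3.43e-05). *Kng1*, which followed *Ang* once group means were removed, was not called between genotypes with vehicle. *Igfals*, which encodes the acid-labile subunit of circulating insulin-like growth factor complexes, had a log2 fold change of -1.54 (edgeR, adjusted p = 1.59e-06).

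Most neighbours on the chromosome were not called, as was true of most genes of the table. The Cre transgene is driven by the promoter of *Adipoq*, whose own gene starts 64.5 kb beyond the end of *Kng1*, and the genotype and the presence of the transgene cannot be told apart in this design. Of the 20 other genes of the table within 500 kb of the cluster, 1 was called with vehicle, where 8.48% of all genes were called. Of the 20, 10 had a mean log2 CPM of at least 0. The median log2 fold change of those 10 was -0.03, against -0.01 over all 12661 genes at that level. *Rfc4*, a subunit of the replication clamp loader, was the exception, at 4.20 CPM in vehicle-treated LmnaADKO livers and 2.19 CPM in controls (log2 fold change 0.94, edgeR, adjusted p = 0.000584). It was also called with rescue (log2 fold change 0.88, edgeR, adjusted p = 0.0304). That call was lost without rescue-treated control library 1 or library 2, at log2 fold changes of 0.70 and 0.83 (edgeR, adjusted p = 0.144 and 0.138).

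Of the 10 neighbours at that level, 7 had an interval that included 0 in the vehicle comparison. *Dnajb11*, a chaperone of the endoplasmic reticulum next to *Ahsg*, had a log2 fold change of 0.29 (95% CI -0.01 to 0.60), and *Tbccd1* one of -0.12 (95% CI -0.35 to 0.11). On the side of *Kng1*, the log2 fold change was 0.06 for *Eif4a2* (95% CI -0.24 to 0.36), 0.00 for *St6gal1* (95% CI -0.27 to 0.27), and -0.06 for *Masp1* (95% CI -0.26 to 0.14). Of the 4 further genes, *B630019A10Rik* stood at 0.09 (95% CI -0.20 to 0.38) and *Gm15746* at -0.35 (95% CI -0.80 to 0.10). *Gm30505*, at -0.53 (95% CI -1.05 to -0.02; edgeR, adjusted p = 0.167), and *Gm45338*, at -0.38 (95% CI -0.66 to -0.09; edgeR, adjusted p = 0.0667), had intervals below 0 and were not called. *St6gal1*, a sialyltransferase of secreted glycoproteins, and *Masp1*, a serine protease of the lectin pathway of complement, are liver genes as well. With rescue, 8 of the 10 neighbours had a log2 fold change above 0 and 2 below. Their median was 0.15, against 0.01 over all genes at that level. Besides *Rfc4*, 2 neighbours had intervals above 0 with rescue and were not called. They were *Gm15746* (0.70, 95% CI 0.14 to 1.25) and *B630019A10Rik* (0.40, 95% CI 0.04 to 0.76). By annotated position, *Gm15746* lies inside *B630019A10Rik*, *Gm30505* overlaps *Ahsg*, and *Gm45338* overlaps *Masp1*. The neighbours may therefore not all be separate observations. *Adipoq* itself was close to undetected in liver, with 0 to 13 counts per library and 0 counts in all 8 rescue-treated LmnaADKO libraries. Within the cluster, positions were taken at the lower annotated coordinate of each gene, relative to that of *Adipoq*. The 3 genes called lower, *Ahsg*, *Fetub*, and *Hrg*, lay at -255, -228, and -195 kb, and *Kng2* and *Kng1* at -161 and -88.7 kb. *Kng2* is read from the minus strand, so its value marks the end of its transcription and not the start. *Rtp4*, which lies just outside the 500 kb window and was looked up after its values had been seen, was lower in vehicle-treated LmnaADKO livers (log2 fold change -0.94, edgeR, adjusted p = 1.14e-05), while *Etv5*, looked up likewise just outside the other side of the window, had a log2 fold change of -0.19 (edgeR, adjusted p = 0.455).

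**Figure D4:**
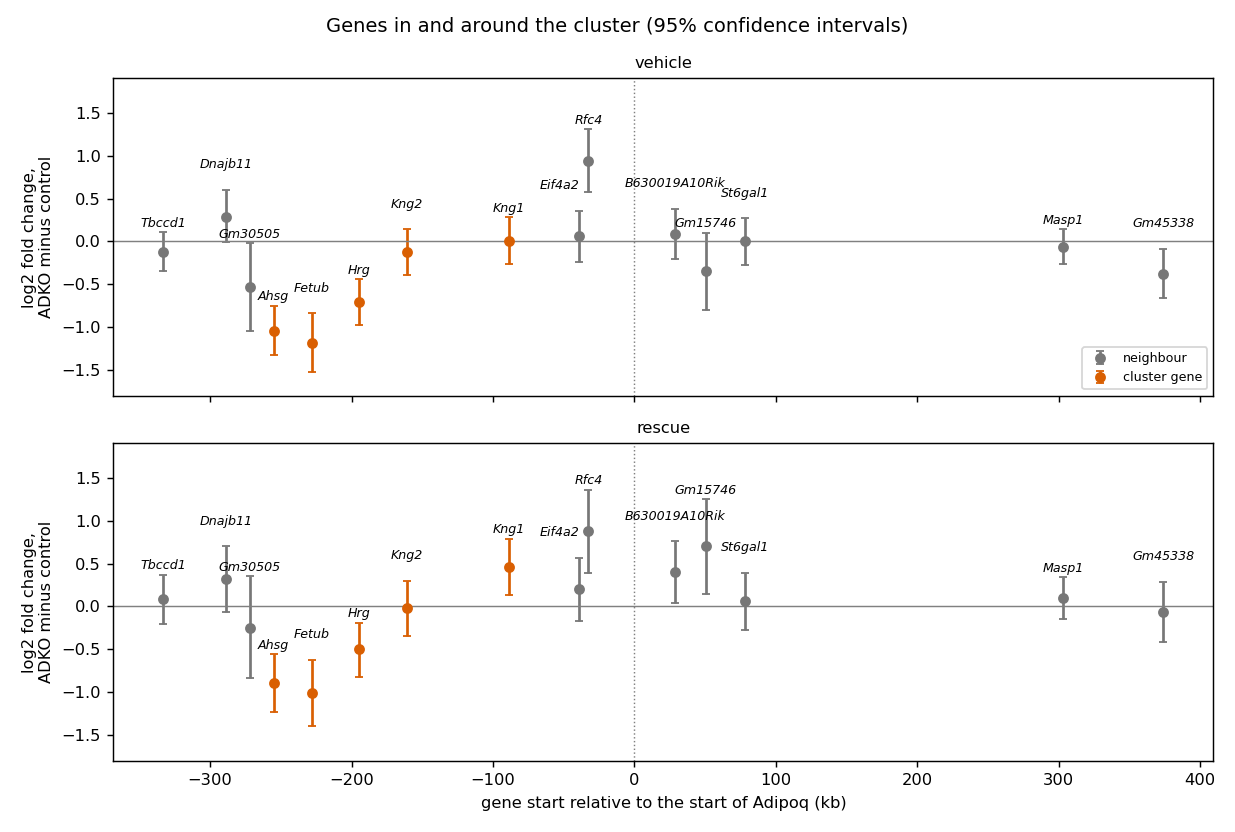
Log2 fold change, LmnaADKO relative to control, with 95% confidence intervals (bars), with vehicle (top) and rescue (bottom). Shown are the 5 cluster genes and the 10 neighbours whose log2 CPM averaged at least 0. The horizontal axis is the distance in kb of each gene's lower annotated coordinate, whatever its strand, from that of Adipoq. Ahsg, Fetub, and Hrg lay below 0 in both panels. The neighbours scattered around 0 with vehicle, 8 of the 10 lay above 0 with rescue, and Rfc4 was the neighbour that was called.

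The kallikrein-kinin and contact pathway acts on the products of *Kng1* and *Kng2*. Of 18 of its genes in the table, 1 was called higher and 4 lower in vehicle-treated LmnaADKO livers. Of all genes, 5.12% were called higher and 3.36% lower. The median log2 fold change was -0.19 against 0.00 over all genes. *Serping1*, the inhibitor of C1 and plasma kallikrein, fell by 0.73 on the log2 scale (906 ± 194 to 547 ± 47.3 CPM, SD of 7 and 6 libraries here and for the listed genes that follow, edgeR, adjusted p = 0.00124). *F11*, which encodes coagulation factor XI and circulates bound to high-molecular-weight kininogen, fell by 0.76 (43.3 ± 7.50 to 25.5 ± 5.69 CPM, edgeR, adjusted p = 0.00468). *Klkb1*, which encodes plasma prekallikrein, and *Cpn2*, which encodes a subunit of the kinin-degrading carboxypeptidase N, were the other 2, with log2 fold changes of -0.64 and -0.62, and are named here because the count is small. *Ace*, the enzyme that degrades bradykinin, was the gene called higher, at 2.55 ± 0.512 against 1.32 ± 0.375 CPM (log2 fold change 0.94, edgeR, adjusted p = 0.00175). With rescue, 0 of the 18 were called between genotypes by edgeR or DESeq2, where edgeR called 2.88% of all genes. Of the 18, 2 had an unadjusted p under 0.05, as did 16.9% of all genes, and the median was -0.12. Without LmnaADKO rescue library 7, 1 of the 18 was called.

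Binding partners and targets of fetuins and *Hrg* moved in both directions. Of 22 in the table, 3 were called higher and 3 lower with vehicle, where 5.12% of all genes were called higher and 3.36% lower. The median log2 fold change was -0.11. *Thbs1*, the thrombospondin to which *Hrg* binds, was higher by 2.01 on the log2 scale (1.12 ± 0.353 to 4.56 ± 1.64 CPM, edgeR, adjusted p = 0.00015). *Spp1*, which encodes the mineral-binding protein osteopontin, was higher by 1.83 (32.7 ± 7.28 to 116 ± 38.5 CPM, edgeR, adjusted p = 0.000302). *Spp1* is also one of the cholangiocyte markers used here and made up most of their summed level. *Irs2*, a substrate of the insulin receptor, which fetuin-A is known to inhibit, fell by 0.92 (20.7 ± 3.74 to 11 ± 2.38 CPM, edgeR, adjusted p = 0.0072). The insulin receptor gene *Insr* was not called, with a log2 fold change of -0.28 (edgeR, adjusted p = 0.118). *Asgr2*, a subunit of the receptor that clears desialylated plasma glycoproteins, was called lower in both genotype comparisons, with log2 fold changes of -0.86 with vehicle and -0.64 with rescue (edgeR, adjusted p = 5.2e-06 and 0.00436). With rescue it was the 1 gene of 22 called by edgeR, where 2.88% of all genes were called and DESeq2 called 3 of the 22. Without control rescue library 2, the log2 fold change of *Asgr2* was -0.56 (edgeR, adjusted p = 0.0533).

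Of the other cystatins, 7 of 18 listed genes were in the table and 1 was called with vehicle, where 8.48% of all genes were called. *Cstb*, an intracellular inhibitor of cathepsins, was higher in vehicle-treated LmnaADKO livers, at 47.2 ± 7.07 against 30.3 ± 4.14 CPM (log2 fold change 0.64, edgeR, adjusted p = 0.00233). Without LmnaADKO vehicle library 3, its log2 fold change was 0.58, a fold change under 1.5, and it was not called. *Cst3*, the widely expressed secreted cystatin C, had a log2 fold change of 0.13 and was not called. With rescue, 0 of the 7 were called by edgeR or DESeq2, and 0 had an unadjusted p under 0.05. Of all genes, 2.88% were called by edgeR and 16.9% had such a p.

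Other hepatocyte plasma proteins were called in 1 direction with vehicle. Of 30, 11 were called lower and 0 higher by edgeR, where 3.36% of all genes were called lower, and 28 had a log2 fold change below 0, with a median of -0.46. *C3*, the central complement component, fell by 1.28 (9489 ± 2031 to 3906 ± 352 CPM, edgeR, adjusted p = 6.43e-06). *Serpinf2*, the inhibitor of plasmin, fell by 1.03 (1011 ± 57.4 to 495 ± 80.9 CPM, edgeR, adjusted p = 1.12e-05), and *Plg*, which encodes plasminogen, a ligand of *Hrg*, fell by 0.89 (3136 ± 253 to 1693 ± 281 CPM, edgeR, adjusted p = 3.36e-05). *Plg* is on the list of binding partners too, so its call is counted in both lists. The lowered plasma proteins were not the whole class, since *Alb* and *Ttr*, which encode albumin and transthyretin, had log2 fold changes of -0.33 and 0.04 and were not called. With rescue, *F10*, which encodes coagulation factor X, was the 1 gene of 30 called by edgeR (log2 fold change -0.61, adjusted p = 0.00879), where 2.88% of all genes were called. DESeq2 called 3 of the 30, and the median was -0.37. *F10* was not called without LmnaADKO rescue library 3 (log2 fold change -0.55) or without control rescue library 3 (-0.50). Between rescue and vehicle in LmnaADKO livers, where edgeR called no gene of the table, 8 of the 30 had an unadjusted p under 0.05, as did 6.71% of all genes, and 29 of 30 log2 fold changes lay above 0 with a median of 0.25. The 5 genes of the cluster ran from 0.22 to 0.42 in that comparison.

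Transcription factors of hepatocytes were listed because the plasma protein genes are among their textbook targets. Of 20, 1 was called higher and 4 lower with vehicle, where 5.12% of all genes were called higher and 3.36% lower. The median log2 fold change was -0.29. *Nr1i3*, the constitutive androstane receptor, fell by 1.0 (446 ± 140 to 222 ± 67.7 CPM, edgeR, adjusted p = 0.00157) and was also called with rescue (log2 fold change -1.30, edgeR, adjusted p = 0.00233), though not without the 3 libraries set apart above by gene length (log2 fold change -1.10, edgeR, adjusted p = 0.0713). *Onecut1*, also named HNF6, had a log2 fold change of -1.23 (6.59 ± 3.53 to 2.81 ± 1.37 CPM, edgeR, adjusted p = 0.0349) with overlapping groups, and it was called in 6 of 13 fits that each left out 1 library, with an adjusted p of up to 0.0803 from edgeR. *Cebpd* was higher in vehicle-treated LmnaADKO livers by 1.17 on the log2 scale (5.76 ± 1.03 to 12.9 ± 4.94 CPM, edgeR, adjusted p = 0.000452). It was higher with rescue than with vehicle in controls as well, by 1.38 (edgeR, adjusted p = 0.0268), but that call was kept in only 1 of 10 fits that each left out 1 library, with an adjusted p of up to 0.195 from edgeR. *Ahsg*, *Fetub*, and *Hrg* were not called in that comparison, and a link between them and *Cebpd* was not tested. *Hnf4a*, a main regulator of hepatocyte identity, was not called (log2 fold change -0.27 with vehicle).

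*Ahsg* is known as a negative acute phase gene, one whose liver transcript falls in inflammation, so acute phase genes were listed too. Of 22, 1 was called higher and 1 lower with vehicle, where 8.48% of all genes were called in either direction. The median log2 fold change was -0.24. With rescue, edgeR called 0 of the 22 and 2.88% of all genes, and DESeq2 called 1 of the 22. An unadjusted p under 0.05 was found for 5 of the 22 and for 16.9% of all genes. *Steap4*, a metalloreductase, was higher (119 ± 35.2 to 212 ± 22.8 CPM, log2 fold change 0.83, edgeR, adjusted p = 0.000108), and *Fgl1* was lower (631 ± 423 to 275 ± 56.3 CPM, log2 fold change -1.20, edgeR, adjusted p = 0.00558). The large spread of *Fgl1* in controls came with library 1, at 1569 CPM against 374 to 598 CPM in the other 6. The same library held 1691 CPM of *Saa1* and 1638 CPM of *Saa2*, which encode serum amyloid A, against 39.4 to 142 and 25.5 to 76.8 CPM in the others. Its *Ahsg*, at 9982 CPM, lay within the range of the other controls, and its *Kng1*, at 2552 CPM, was the highest of the group. Without it, 4 of the 22 genes were called, and the log2 fold change of *Fgl1* was -0.79.

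**Figure D5:**
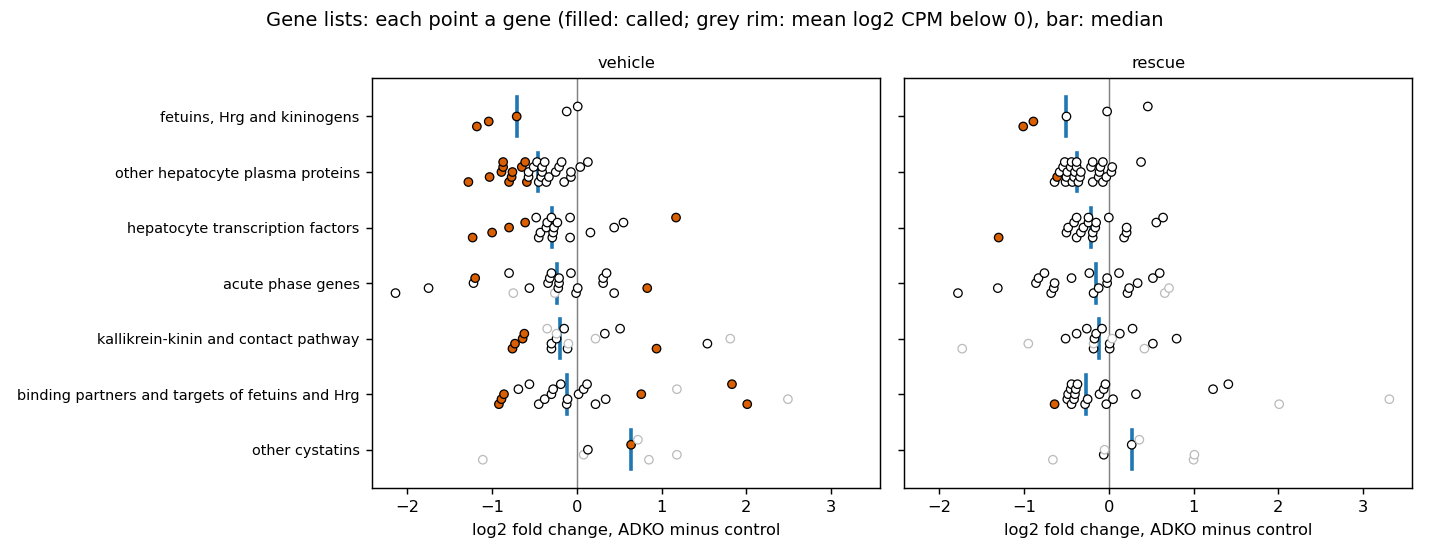
Log2 fold change, LmnaADKO relative to control, of the 5 cluster genes and of every measured gene of 6 lists with vehicle (left) and rescue (right), with 1 point per gene, a filled point for a called gene, a grey rim for a mean log2 CPM below 0, and a bar at the list's median. Ahsg and Fetub lay at the lower end of the range of the 30 other hepatocyte plasma proteins, whose median was -0.46 with vehicle and -0.37 with rescue.

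Markers of other liver cells moved with genotype in some lists. Of all genes, 5.12% were called higher and 3.36% lower with vehicle. Hepatocyte markers summed to 77476 to 134893 CPM in vehicle-treated controls and 67824 to 103109 CPM in vehicle-treated LmnaADKO livers, with 1 of 7 called higher and 2 lower. Cholangiocyte markers summed to 27.1 to 51.2 CPM and 85.8 to 196 CPM, with 2 of 6 called higher. Stellate cell and fibroblast markers summed to 195 to 243 CPM and 252 to 336 CPM, with 2 of 6 called higher and 2 of 6 log2 fold changes below 0. Endothelial markers, at 200 to 253 and 188 to 242 CPM, overlapped between these groups. Of these 6 markers, 2 were called higher, while 3 log2 fold changes lay above 0 and 3 below 0. The 2 called were *Lyve1*, of sinusoidal and lymphatic endothelium (log2 fold change 1.93, edgeR, adjusted p = 5.82e-07), and *Vwf* (0.68, edgeR, adjusted p = 0.0203). *Lyve1* was also called with rescue (1.49, edgeR, adjusted p = 0.00221). Kupffer cell and macrophage markers averaged 585 and 495 CPM, with 1 of 7 called higher (*Gpnmb*) and 5 of 7 log2 fold changes below 0. Lymphocyte and neutrophil markers averaged 23.9 and 24.4 CPM, with none of 7 at the threshold for a call. Adipocyte markers summed to at most 3.99 CPM in any group, and erythroid markers, at 283 to 2037 and 709 to 3758 CPM with vehicle, reached 7473 CPM in a rescue-treated LmnaADKO library, with 1 of 5 called higher with vehicle (*Alas2*). *Alb* made up most of the summed hepatocyte markers. It averaged 86150 of 109249 CPM in vehicle-treated controls and 68478 of 87091 CPM in vehicle-treated LmnaADKO livers. The part of hepatocytes and of the other cell types in the levels of the cluster was not tested.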

How the data were processed

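Libraries were made from polyadenylated liver RNA with a strand-specific (dUTP) protocol. The authors deposited 1 table of whole-number counts per gene for all 24 libraries, from which genes at 0 in all samples had been removed. The submitters' processing notes name cutadapt 4.8, FastQC 0.11.8, STAR 2.7.8a, RSEM 1.3.3, and GRCm38. Whether the counts are rounded RSEM estimates is not given in the sources used here. The methods name Ensembl 102 and DESeq2 for the study's own analysis.

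Counts were analysed as deposited. Library totals ran from 19863304 to 21510054. All 23972 genes were fitted in 1 model of the 4 groups with edgeR 4.0.16 in R 4.3.3 (TMM scaling, robust quasi-likelihood test), with Benjamini-Hochberg adjustment over all genes. The threshold for a call was 0.05 for the adjusted p together with a fold change of 1.5. Standard errors and 95% intervals were taken from the quasi-likelihood F statistic and its degrees of freedom. CPM used TMM-scaled totals, and log2 CPM a prior count of 2. DESeq2 1.42.0 and limma 3.58.1, on which edgeR builds, completed the tools. Gene positions came from GENCODE M21, which held 23926 of the genes. Upstream sequences came from RefSeq (GRCm38.p6), which matched 4 of the 5 genes.

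Groups followed the labels, and libraries were numbered within a group in accession order. The labels name 1 mouse per library. Genes named in the text were the 5 cluster genes, their neighbours within 500 kb, up to 3 called genes per list and comparison by size of change among those whose log2 CPM averaged 0 or more, and the 3 genes with the highest within-group correlation to each cluster gene. Klkb1, Cpn2, Insr, Cst3, Alb, Ttr, Hnf4a, Rtp4, Etv5, Saa1, Saa2, and the called endothelial, macrophage, and erythroid markers were named in addition, after their values had been seen. Called markers of the other cell types were given as counts. The cluster genes and lists were chosen with earlier results of these data known. Alternatives were other scaling, filtering, threshold, covariate, and tool, the kininogens summed, and fits without chosen libraries.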

Additional observations from a re-analysis of the deposited data

Results flagged for a closer look

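*Hrg* in vehicle-treated controls had 1 library far below the others. Library 4 measured 854 CPM, the next lowest 1104 CPM, and the gap was 0.774 of the group's whole range, above Dixon's critical value of 0.568 for 7 samples. It was the 1 such value among 15 gene and group pairs tested, and chance flags about 5% of groups. The same library had the highest *Fgf21* level of its group, 10.8 CPM against 1.9 to 5.01 CPM in the others, a value looked up after the library had stood out. Its *Ahsg* (11548 CPM) and *Fetub* (451 CPM) lay within the range of the other controls. The fold change of *Hrg* stayed called with vehicle when this or any other single library was left out, at -0.77 to -0.66 on the log2 scale.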

How the results depend on the processing

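No paired analysis was possible because the labels carry animal numbers and no replicate numbers shared between groups. The digits of those numbers were unevenly spread, since 6 of 7 vehicle-treated controls had 3 digits, whereas 5 of 6 vehicle-treated LmnaADKO mice, all 3 rescue-treated controls, and 4 of 8 rescue-treated LmnaADKO mice had 4. *Ahsg*, *Fetub*, and *Hrg* with vehicle, and *Ahsg* and *Fetub* with rescue, kept their direction and their call under all alternatives run, which included fits that each left out 1 library. Those fits gave -1.11 to -0.97, -1.29 to -1.12, and -0.77 to -0.66 with vehicle, and -0.97 to -0.82 for *Ahsg* and -1.13 to -0.81 for *Fetub* with rescue (log2 fold changes). *Hrg* with rescue was not called under any of them (-0.61 to -0.41). The alternatives for the lists were added after seeing the data. With vehicle, the adjusted p alone gave 19 called plasma proteins (11 in the report) and 9 transcription factors (5 in the report), and the number of digits of the animal number as a covariate gave 2 transcription factors. With rescue, filterByExpr gave 2 binding partners, 2 plasma proteins, and 1 acute phase gene, and DESeq2 gave 3, 3, and 1 (1, 1, and 0 in the report). For the plasma proteins, the adjusted p alone gave 3, and DESeq2 size factors and the covariate gave 2 each. A fit of only the groups compared gave 0 plasma proteins and 0 neighbours (1 each in the report), and leaving out the 3 libraries with the steepest length slopes gave 0 transcription factors (1 in the report). Leaving out single libraries gave 0 to 1 other cystatins and 2 to 4 acute phase genes with vehicle. With rescue it gave 0 to 1 genes of the kallikrein-kinin pathway, 0 to 3 binding partners, 0 to 3 plasma proteins, 0 to 1 acute phase genes, and 0 to 1 neighbours. The cause of these shifts was not tested. The interaction was not fitted on only the groups compared, since it uses all 4. The number of rescue-treated controls, 3, limits the precision of the comparisons that include them.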
